A study of Mus musculus with 24 samples.

Results

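The comparison set CD11b+ SiglecF- interstitial macrophages (IMs) against CD11b- SiglecF+ alveolar macrophages (AMs), both sorted as EGFP+ from mouse lungs at day 14 after bleomycin. Its members were defined by their sort gates and time, with earlier results of these data known. They are 6 of the 24 libraries of the series, 3 IM and 3 AM. The mice were Spp1-EGFP knock-in animals, in which EGFP reports Spp1, and they had received bleomycin into the trachea (3 µg per g), which damages the lung and leads to scarring. Both gates therefore hold only reporter-positive cells of injured lungs, and EGFP- cells at day 14 were not analysed here. A second pair of groups, used for context, had received PBS and was taken at day 7. It comprised 3 libraries of IMs from wild-type C57BL/6J mice, without an EGFP sort, and 3 libraries of EGFP+ AMs from the knock-in mice. The age and sex of the mice, and whether animals were pooled for a library, are not given in the sources used here. Nothing in the labels says that libraries come from separate animals, so the p-values measure spread among these libraries only. In the main day 14 test this is the spread of the differences between IM and AM libraries of the same replicate number.

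AMs live in the air spaces, are maintained by GM-CSF and the nuclear receptor PPARγ, and clear surfactant lipid. IMs live in the lung tissue around airways, vessels and nerves, depend on CSF1, and include long-lived cells that carry Folr2 and Lyve1 as well as cells newly derived from monocytes. After injury, monocytes enter both compartments, so a surface gate can hold resident and recruited cells together. Spp1 encodes osteopontin, a secreted matrix protein made by macrophages of fibrotic lung. In bulk RNA, fewer cells of a type and less RNA per cell cannot be told apart.

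The 6 libraries held 13450053 to 16262991 counts, and the 10 most abundant genes took 9.32% to 15% of them. The gate was the main axis of a principal component analysis, with 76.1% of the variance on PC1. PC2 carried 11.5%, and on it IM replicate 1 stood at 31.4, against -8.06 and -25.7 for IM replicates 2 and 3. Same-numbered IM and AM libraries deviated together from their group means, and the replicate number was a block in the fit. With the block, a library whose same-numbered partner is left out adds almost nothing to the gate difference. Blocked fits without a replicate number, its IM library or its AM library are therefore nearly the same fit and not separate checks. Levels are in CPM (counts relative to the library total, in the usual unit), scaled by the normalisation factors of the fit, and are given in the order of replicates 1, 2 and 3.

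The sort proteins were matched by their genes. Itgam, which encodes CD11b, had 325, 195 and 167 CPM in EGFP+ IMs, against 9.16, 5.30 and 6.70 CPM in EGFP+ AMs. Siglecf, which encodes SiglecF, had 2.35, 10.2 and 11.3 CPM in EGFP+ IMs, against 104, 125 and 124 CPM in EGFP+ AMs. These genes were used by the gates, so their difference is a check and not a finding. Of 11 pan-macrophage markers, all were tested in these libraries, and Csf1r, the receptor for CSF1, averaged 1263 ± 263 CPM in EGFP+ IMs and 680 ± 116 CPM in EGFP+ AMs (SD, n = 3 each). Its call in the test below was lost without replicate number 2 or only its AM library, and, with the block dropped, without AM replicate 1. The summed CPM of the 11 markers was 21100 to 55400 in IMs and 40500 to 51500 in AMs, with IM replicate 1 at the low end. Without Lyz2, the most abundant of them, the sums were 9090 to 9260 in IMs and 7090 to 7290 in AMs, which did not overlap. In the test below, 5 of the 11 were called higher in EGFP+ IMs and 2 lower, against 13.5% and 13.2% over all genes. The higher count was 2 without replicate number 2 or its AM library and 3 without its IM library, and none was lower in these fits.

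Spp1 itself did not pass the test between the gates. It had 7359, 6124 and 4754 CPM in EGFP+ IMs, against 6178, 4037 and 3651 CPM in EGFP+ AMs. The groups overlapped, and each IM library was above the AM library of the same number. The log2 fold change of IM over AM was 0.41 ± 0.18 (SE; adjusted p = 0.117, edgeR quasi-likelihood F test with Benjamini-Hochberg adjustment over all genes tested, used for every adjusted p for a gene below). It passed with DESeq2 (adjusted p = 0.013) and when replicate number 1 was left out (adjusted p = 0.00109), or only its IM (adjusted p = 0.000837) or only its AM library (adjusted p = 0.00133).

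The gates differed in 3685 of 13793 genes tested at an adjusted p under 0.05 (26.7%). Of these, 1862 were higher in EGFP+ IMs (13.5%) and 1823 were lower (13.2%), and the median log2 fold change over all genes was near 0. With a fold change of at least 2, 1589 were called (11.5%), 878 higher (6.37%) and 711 lower (5.15%). Without replicate number 2, the counts at any fold were 895 higher and 761 lower. They were 867 and 773 without IM replicate 2 alone, and 912 and 750 without AM replicate 2 alone.

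Among called genes with at least 10 CPM in the higher gate, no overlap between the gates and no predicted gene model, the 10 with the largest log2 fold change in each direction were taken. On the IM side, Ccl8 (ENSMUSG00000009185), a chemokine that attracts monocytes and other leukocytes, had 36.7, 39.5 and 94.3 CPM in EGFP+ IMs, against 0.195, 0.209 and 0.191 CPM in EGFP+ AMs. Every IM library was far above every AM library. The log2 fold change was 8.09 ± 0.25 (SE; adjusted p = 1.04e-08), and 7.50 without IM replicate 3 or without AM replicate 3. Folr2, the folate receptor of tissue-resident macrophages, had 84.9, 48.7 and 55.8 CPM in EGFP+ IMs, against 0.649, 0.139 and 0.128 CPM in EGFP+ AMs, a log2 fold change of 7.68 ± 0.25 (SE) that was 8.53 without replicate number 1, or without its IM or AM library. The chemokines Pf4 and Ccl7 followed, at log2 fold changes of 6.47 and 6.39, and that of Pf4 was 5.74 without the block and without IM replicate 1, and 7.18 without AM replicate 1. Tmem119, best known as a marker of microglia, averaged 40.5 ± 10.2 CPM in EGFP+ IMs and 0.618 ± 0.231 CPM in EGFP+ AMs. Gas6, which bridges dying cells to receptors of the TAM family, averaged 43.1 ± 5.19 CPM in EGFP+ IMs and 0.901 ± 0.350 CPM in EGFP+ AMs (SD, n = 3 each). Ednrb, the endothelin B receptor, was also higher, with 45.0, 15.8 and 8.76 CPM in EGFP+ IMs, against 0.455, 0.279 and 0.191 CPM in EGFP+ AMs. Its IM libraries spread widely, and all were above the AM libraries. Without the block and without IM replicate 1 its log2 fold change of 6.15 was 5.28.

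On the AM side, Tc2n (ENSMUSG00000021187), a gene for a protein with tandem C2 domains, had no count in any EGFP+ IM library, against 15.5, 8.43 and 6.38 CPM in EGFP+ AMs. It was at least 154-fold lower in IMs, taking a floor of 3 counts over the group. Krt79 (ENSMUSG00000061397), a keratin gene, had 0.138, 0.0677 and 0.204 CPM in EGFP+ IMs, against 25.5, 33.9 and 32.2 CPM in EGFP+ AMs, a log2 fold change of -7.72 ± 0.28 (SE; adjusted p = 2.17e-08). The keratin gene Krt19 averaged 0.295 ± 0.102 CPM in EGFP+ IMs and 50.6 ± 5.55 CPM in EGFP+ AMs. Both keratins belong to the AM identity list below. Wwtr1, which encodes the transcriptional coactivator TAZ, averaged 0.363 ± 0.217 CPM in EGFP+ IMs and 29.4 ± 4.88 CPM in EGFP+ AMs, and its log2 fold change of -6.29 was -7.02 without replicate number 3 or either of its libraries. Lepr, the leptin receptor, averaged 0.526 ± 0.511 CPM in EGFP+ IMs and 40.1 ± 14.8 CPM in EGFP+ AMs (SD, n = 3 each), and its log2 fold change of -6.28 was -7.06 without replicate number 1 or either of its libraries. Rufy4, linked to autophagy, averaged 0.364 ± 0.0369 CPM in EGFP+ IMs and 23.5 ± 1.03 CPM in EGFP+ AMs.

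**Figure D1:**
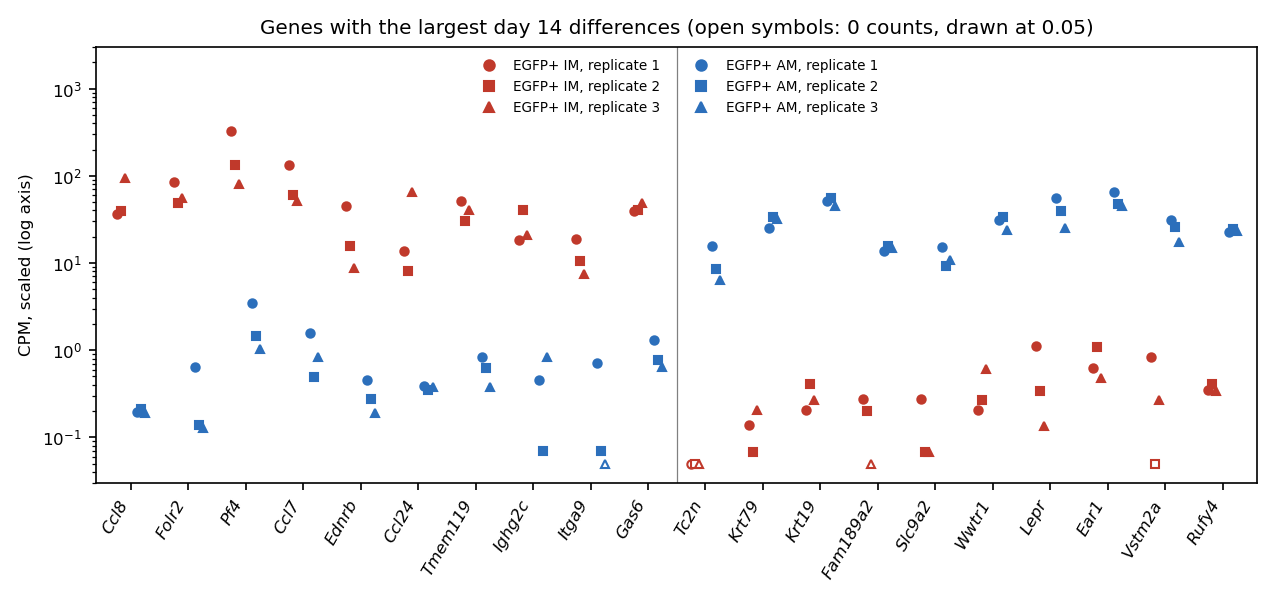
Scaled CPM on a log axis of the 10 genes with the largest log2 fold change in each direction, with EGFP+ IM libraries in red left of EGFP+ AM libraries in blue and a symbol for each replicate number. The IM and AM libraries do not overlap for any of the 20 genes, which the choice of genes required, and Tc2n has no count in the 3 IM libraries.

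The promoters of the pair of genes leading each side are shown because they sit at the ends of the gate difference. The sequences are from RefSeq (GRCm38.p6), 5′ to 3′ on the strand of the gene, 300 bases each, and capitals mark the bases from the annotated transcription start onward. Ccl8 lies at chr11:82114935-82115234 (plus strand), Folr2 at chr7:101857141-101857440 (minus), Tc2n at chr12:101718474-101718773 (minus) and Krt79 at chr15:101940275-101940574 (minus).
Ccl8: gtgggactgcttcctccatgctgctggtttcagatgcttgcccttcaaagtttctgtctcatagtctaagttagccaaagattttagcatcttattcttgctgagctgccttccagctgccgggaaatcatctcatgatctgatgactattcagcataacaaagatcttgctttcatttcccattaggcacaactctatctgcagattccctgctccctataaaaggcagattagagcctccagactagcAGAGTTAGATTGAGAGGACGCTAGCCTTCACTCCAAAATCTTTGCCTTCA
Folr2: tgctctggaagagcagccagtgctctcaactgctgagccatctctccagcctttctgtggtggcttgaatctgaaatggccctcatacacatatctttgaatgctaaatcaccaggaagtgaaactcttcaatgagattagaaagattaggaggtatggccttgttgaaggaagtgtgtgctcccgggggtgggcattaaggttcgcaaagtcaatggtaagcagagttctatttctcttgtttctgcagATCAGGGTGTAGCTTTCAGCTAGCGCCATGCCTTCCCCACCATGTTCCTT
Tc2n: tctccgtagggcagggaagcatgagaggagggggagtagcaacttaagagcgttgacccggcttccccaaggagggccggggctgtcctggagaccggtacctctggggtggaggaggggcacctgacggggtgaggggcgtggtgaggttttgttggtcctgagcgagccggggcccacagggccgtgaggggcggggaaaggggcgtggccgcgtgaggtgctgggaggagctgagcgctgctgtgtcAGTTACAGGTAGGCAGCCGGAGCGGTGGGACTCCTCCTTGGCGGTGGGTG
Krt79: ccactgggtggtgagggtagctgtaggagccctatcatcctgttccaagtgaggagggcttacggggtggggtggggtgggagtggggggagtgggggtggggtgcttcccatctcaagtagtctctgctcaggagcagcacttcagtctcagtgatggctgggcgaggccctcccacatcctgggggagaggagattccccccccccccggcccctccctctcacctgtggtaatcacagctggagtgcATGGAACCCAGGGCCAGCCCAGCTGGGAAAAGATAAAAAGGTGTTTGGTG
The letters searched on both strands were a Maf half-site (TGCTGAC), a nuclear receptor half-site (AGGTCA), its direct repeat spaced by 1 base, which contains the half-site, and a PU.1 site (GAGGAAGT). None of the 4 was present in these 4 windows. Over 32851 promoters of the same length, 4.67%, 16.3%, 0.0396% and 3.2% held them, in the same order. The absence says only that these letters are not in these windows.

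The gene lists described next overlap in members and are described by their counts, read against 13.5% higher and 13.2% lower over all genes tested. Of 28 AM identity genes tested, 23 were lower in EGFP+ IMs and none was higher, with a median log2 fold change of -2.31. Siglecf, used in the gate, is one of them. Plet1, a surface protein gene, had 23.8, 40.2 and 35.3 CPM in EGFP+ IMs, against 860, 923 and 906 CPM in EGFP+ AMs. Chil3, a chitinase-like protein of alveolar macrophages, had 2818, 1650 and 1285 CPM in EGFP+ IMs, against 20670, 11103 and 12243 CPM in EGFP+ AMs. The groups did not overlap for either gene. Ear1, an eosinophil-associated ribonuclease gene that AMs also make, averaged 0.727 ± 0.317 CPM in EGFP+ IMs and 52.7 ± 10.7 CPM in EGFP+ AMs (SD, n = 3 each). Marco, a scavenger receptor, had 26.1, 14.0 and 3.26 CPM in EGFP+ IMs, against 670, 220 and 105 CPM in EGFP+ AMs. Replicate 1 was the highest in both gates, and the log2 fold change was -4.51 ± 0.20 (SE; adjusted p = 2.31e-07). With the block dropped, it was -5.26 without IM replicate 1 and -3.50 without AM replicate 1, and the call was lost without AM replicate 2 or any 1 IM library.

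Of 23 resident IM genes tested, 17 were higher in EGFP+ IMs and 3 were lower, with a median log2 fold change of 3.40. The lower count was 1 without replicate number 2 or either of its libraries. Stab1, a scavenger receptor that takes up dying cells and modified lipoproteins, had 507, 316 and 319 CPM in EGFP+ IMs, against 16.8, 11.9 and 10.02 CPM in EGFP+ AMs. Its groups were far apart, with a log2 fold change of 4.88 ± 0.14 (SE; adjusted p = 9.87e-09). Ltc4s, which makes leukotriene C4, was among the lower members, with 26.8 ± 5.51 CPM in EGFP+ IMs and 89.9 ± 16.4 CPM in EGFP+ AMs (SD, n = 3 each). Of 20 recruited and classical monocyte genes, 10 were higher and 3 were lower, with a median of 1.51. Thbs1, the matrix protein thrombospondin 1, had 5724, 3330 and 2294 CPM in EGFP+ IMs, against 242, 291 and 254 CPM in EGFP+ AMs. F13a1, the A chain of coagulation factor XIII, had 748, 313 and 133 CPM in EGFP+ IMs, against 54.5, 21.4 and 17.0 CPM in EGFP+ AMs. Both genes were highest in IM replicate 1, and neither overlapped between the gates. The log2 fold change of F13a1, 3.55 ± 0.19 (SE), was 2.85 without the block and without IM replicate 1, and its call was lost there and in 3 more such fits, those without IM replicate 2, AM replicate 2 or AM replicate 3. Of 16 nonclassical monocyte genes, 3 were higher and 5 were lower. Without replicate number 1 or either of its libraries 5 were higher, and without IM or AM replicate 3 alone 8 were lower.

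**Figure D2:**
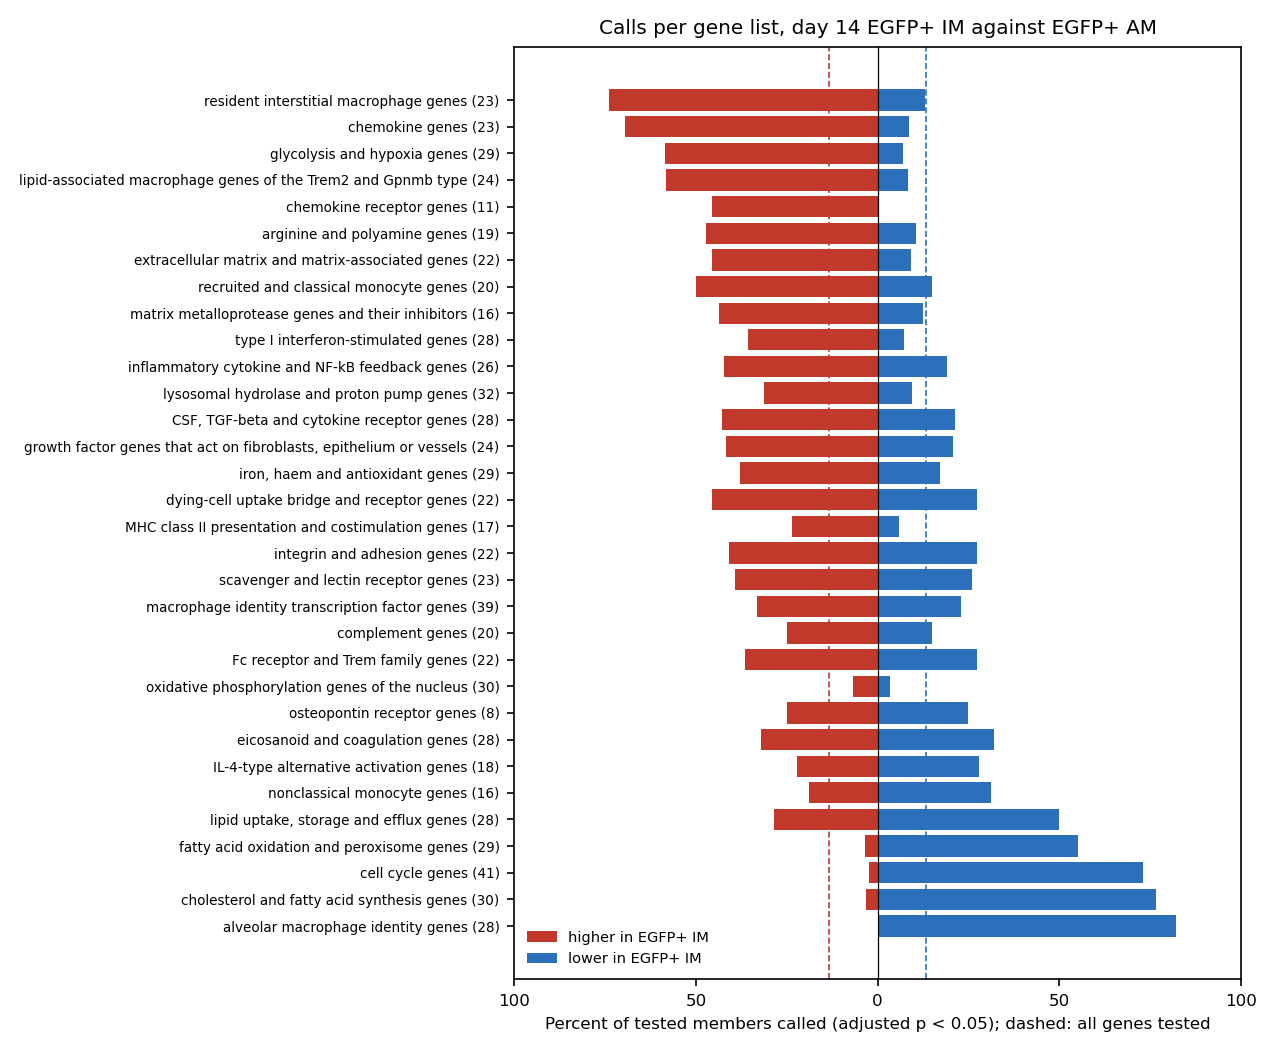
Percent of the tested members of each list that were called higher (red, drawn to the left) or lower (blue, drawn to the right) in EGFP+ IMs than in EGFP+ AMs, with the number tested in parentheses and dashed lines at the shares over all genes, 13.5% and 13.2%. Among these lists, which leave out the markers of other cell types, resident IM and chemokine genes have equal net shares of higher calls, above those of the others, and AM identity, cholesterol synthesis and cell cycle genes have the largest net shares of lower calls.

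Macrophage identity factors split between the gates. Of 39 transcription factor genes, 13 were higher in EGFP+ IMs and 9 were lower. Maf, a leucine zipper factor of tissue macrophages, had 83.2, 51.3 and 47.1 CPM in EGFP+ IMs, against 9.29, 8.29 and 6.45 CPM in EGFP+ AMs. Every IM library was above every AM library, with a log2 fold change of 2.89 ± 0.15 (SE; adjusted p = 1.98e-07). Runx3, a Runt family factor, averaged 35.9 ± 0.889 CPM in EGFP+ IMs and 6.07 ± 1.19 CPM in EGFP+ AMs. Pparg, the nuclear receptor gene on which AMs depend, had 25.0, 36.6 and 43.4 CPM in EGFP+ IMs, against 159, 165 and 159 CPM in EGFP+ AMs. Every IM library was below every AM library, with a log2 fold change of -2.23 ± 0.15 (SE; adjusted p = 2.26e-06). Tcf7l2, a factor of the Wnt pathway, was lower as well, with a log2 fold change of -1.99 ± 0.13 (SE).

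Chemokine genes were mostly higher in EGFP+ IMs. Of 23 tested, 16 were higher and 2 were lower, with a median log2 fold change of 1.12. The lower count was 1 without replicate number 1 or 2 or any 1 of their libraries. Ccl2, the main ligand of the monocyte receptor CCR2, had 215, 81.4 and 61.5 CPM in EGFP+ IMs, against 6.43, 3.55 and 3.38 CPM in EGFP+ AMs. Replicate 1 was the highest in both gates and the gates did not overlap. The log2 fold change was 4.62 ± 0.18 (SE; adjusted p = 4.44e-08), and 3.998 without the block and without IM replicate 1. Ccl24, an eotaxin, had 13.6, 8.19 and 65.7 CPM in EGFP+ IMs, against 0.390, 0.348 and 0.383 CPM in EGFP+ AMs. Much of its IM level came from replicate 3, and the log2 fold change of 6.09 was 4.85 without replicate number 3. With the block dropped, its call was lost without IM replicate 1, AM replicate 2 or AM replicate 3. Among 11 chemokine receptor genes, 5 were higher and none was lower, and 8 were higher without replicate number 1 or either of its libraries, against 2 without replicate number 2 or either of its libraries. Cmklr1, the receptor for chemerin, had 116, 136 and 133 CPM in EGFP+ IMs, against 13.8, 24.5 and 24.5 CPM in EGFP+ AMs. Cxcr3 was low in both, at 2.11 ± 0.582 CPM in EGFP+ IMs and 0.421 ± 0.150 CPM in EGFP+ AMs (SD, n = 3 each), and passed the test (adjusted p = 0.00486).

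Lipid genes moved both ways. Of 24 genes of the lipid-associated macrophage type, 14 were higher in EGFP+ IMs and 2 were lower, with a median log2 fold change of 0.85. Apoe, the lipid carrier apolipoprotein E, had 13807, 23341 and 30671 CPM in EGFP+ IMs, against 1352, 1450 and 1536 CPM in EGFP+ AMs. IM replicate 1 was the lowest of its gate and still well above the AM libraries. Cd36, a receptor for oxidised lipoproteins and fatty acids, had 510, 453 and 464 CPM in EGFP+ IMs, against 50.6, 55.3 and 33.8 CPM in EGFP+ AMs, a log2 fold change of 3.38 ± 0.16 (SE; adjusted p = 1.54e-07). Trem2, a lipid-sensing receptor, had 410, 520 and 730 CPM in EGFP+ IMs, against 177, 174 and 199 CPM in EGFP+ AMs. Among 28 genes of lipid uptake, storage and efflux, 8 were higher and 14 were lower. The higher count was 5 without replicate number 2 or either of its libraries. Abca1, which exports cholesterol, was higher, with 472, 430 and 406 CPM in EGFP+ IMs, against 132, 114 and 88.1 CPM in EGFP+ AMs. Cidec, a lipid droplet protein gene, was lower, with 0.483, 0.474 and 0.679 CPM in EGFP+ IMs, against 30.7, 30.0 and 20.4 CPM in EGFP+ AMs. Mgll, a monoglyceride lipase, was lower too, with a log2 fold change of -4.15 ± 0.21 (SE).

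Of 30 cholesterol and fatty acid synthesis genes, 23 were lower in EGFP+ IMs and 1 was higher, with a median log2 fold change of -0.72. Sqle, squalene epoxidase, had 37.0, 65.3 and 54.9 CPM in EGFP+ IMs, against 93.4, 124 and 112 CPM in EGFP+ AMs. The gates did not overlap, and Mvd and Hsd17b7, further enzymes of the pathway, had log2 fold changes of -1.20 ± 0.13 and -1.43 ± 0.13 (SE). The lower count was 12 without replicate number 2 or either of its libraries, and 13 without the block. No member was higher without replicate number 2 or either of its libraries. Of 29 fatty acid oxidation and peroxisome genes, 16 were lower and 1 was higher, and the lower count was 9 without replicate number 2 or either of its libraries. The higher count was 2 without replicate number 1 or either of its libraries, and 0 without replicate number 2 or 3 or any 1 of their libraries. Of 29 glycolysis and hypoxia genes, 17 were higher and 2 were lower, with a median of 0.57, and the higher count was 8 without replicate number 2 or either of its libraries. Hk3, a hexokinase, had 134, 126 and 119 CPM in EGFP+ IMs, against 38.7, 38.0 and 42.6 CPM in EGFP+ AMs. Of 30 nuclear genes of oxidative phosphorylation, 2 were higher and 1 was lower. The higher count was 6 without replicate number 1 or either of its libraries, 0 without replicate number 2 or either of its libraries, and 1 without replicate number 3 or either of its libraries. No member was lower in these fits, other than those without AM replicate 1 alone or IM replicate 3 alone.

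Cell cycle genes were lower in EGFP+ IMs. Of 41 tested, 30 were lower and 1 was higher, with a median log2 fold change of -0.83. Top2a, a topoisomerase of dividing cells, had 21.1, 25.3 and 33.0 CPM in EGFP+ IMs, against 57.5, 74.0 and 72.8 CPM in EGFP+ AMs. Bub1b, a spindle checkpoint kinase, had 21.8, 24.0 and 28.4 CPM in EGFP+ IMs, against 55.2, 62.1 and 64.6 CPM in EGFP+ AMs. All IM libraries were below all AM libraries for both genes, with log2 fold changes of -1.38 ± 0.13 and -1.30 ± 0.12 (SE). The lower count was 16 without replicate number 2, 18 without only its IM library and 17 without only its AM library, and 2 were higher without replicate number 1 or either of its libraries.

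**Figure D3:**
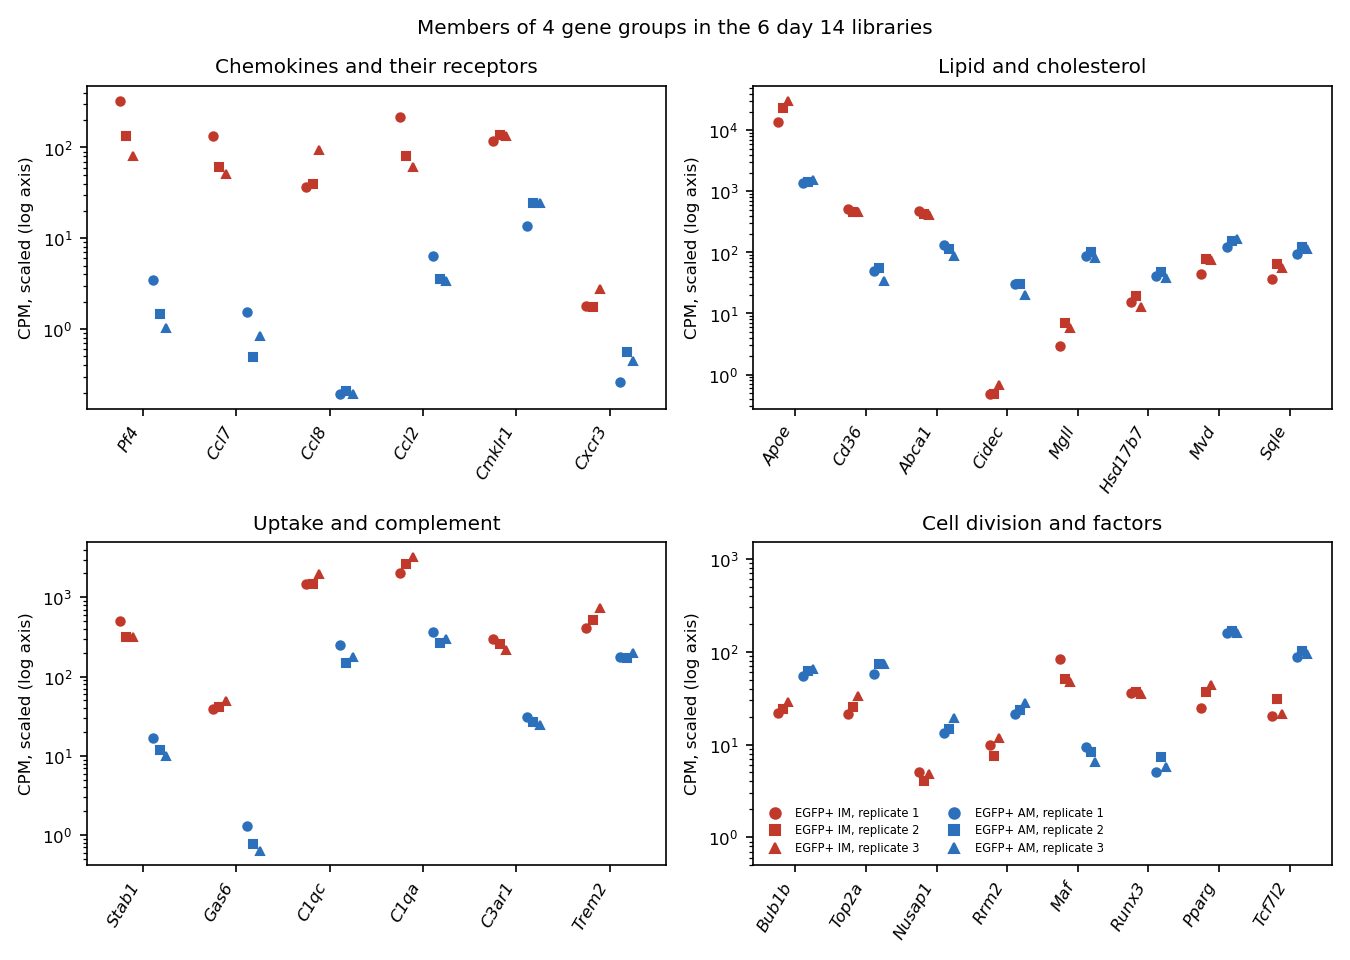
Scaled CPM on log axes of members of 4 gene groups, with EGFP+ IM libraries in red left of EGFP+ AM libraries in blue and a symbol for each replicate number. Apoe reaches 30671 CPM in IM replicate 3, and Top2a lies at 21.1 to 33.0 CPM in EGFP+ IMs and 57.5 to 74.0 CPM in EGFP+ AMs.

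Complement and uptake genes gave high levels in EGFP+ IMs for a few members. Of 20 complement genes, 5 were higher and 3 were lower. The higher count was 8 without replicate number 1 or either of its libraries, and Itgam, a gate gene, is in the list. C1qa, a chain of the complement initiator C1q, had 2003, 2634 and 3221 CPM in EGFP+ IMs, against 371, 269 and 298 CPM in EGFP+ AMs. C1qc, a further chain, averaged 1643 ± 277 CPM in EGFP+ IMs and 194 ± 53.6 CPM in EGFP+ AMs, and the receptor C3ar1 averaged 257 ± 40.3 CPM in EGFP+ IMs and 27.5 ± 3.07 CPM in EGFP+ AMs (SD, n = 3 each). Of 22 genes for the uptake of dying cells, 10 were higher and 6 were lower, and the lower count was 2 without replicate number 2 or either of its libraries. Slc11a1, a metal transporter of phagosomes and not an uptake receptor or bridge, had 327, 372 and 416 CPM in EGFP+ IMs, against 18.4, 21.2 and 17.9 CPM in EGFP+ AMs. Its log2 fold change was 4.28 ± 0.14 (SE; adjusted p = 1.5e-08).

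Genes that act on matrix, fibroblasts and vessels were more often higher than lower in EGFP+ IMs. Of 22 extracellular matrix genes 10 were higher and 2 were lower, of 16 matrix metalloprotease and inhibitor genes 7 were higher and 2 were lower, and of 24 growth factor genes 10 were higher and 5 were lower. The lower count was 1 for matrix genes without replicate number 2 or either of its libraries, and 1 for metalloprotease and inhibitor genes without number 2 or 3 or any 1 of their libraries. For the growth factors, the lower count was 3 without replicate number 2 or either of its libraries. Adam8, a cell surface protease, had 1088, 728 and 382 CPM in EGFP+ IMs, against 52.0, 59.2 and 38.4 CPM in EGFP+ AMs. Mmp14, a membrane-bound collagenase, had 342, 504 and 466 CPM in EGFP+ IMs, against 132, 172 and 192 CPM in EGFP+ AMs. No IM library was as low as an AM library for either protease. Vegfa, which drives vessel growth, had 141, 196 and 157 CPM in EGFP+ IMs, against 31.6, 41.3 and 30.4 CPM in EGFP+ AMs. Pdgfb, a mitogen of fibroblasts and pericytes, averaged 30.5 ± 8.29 CPM in EGFP+ IMs and 8.19 ± 1.88 CPM in EGFP+ AMs. Ereg, an EGF receptor ligand, went the other way, with 25.0, 24.8 and 17.5 CPM in EGFP+ IMs, against 130, 157 and 154 CPM in EGFP+ AMs. Timp1, an inhibitor of metalloproteases, had a log2 fold change of 1.62 ± 0.13 (SE).

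Of 8 osteopontin receptor genes, 2 were higher and 2 were lower in EGFP+ IMs, and without replicate number 2 or either of its libraries 1 was higher and none was lower. Without replicate number 3 or either of its libraries 1 was lower. Itga9, an integrin chain, had 18.7, 10.6 and 7.47 CPM in EGFP+ IMs, against 0.714, 0.0697 and 0 CPM in EGFP+ AMs. Its log2 fold change was 5.61 ± 0.46 (SE; adjusted p = 1.55e-05), and 7.75 without replicate number 1. Cd44, a receptor for hyaluronan and osteopontin, had 1084, 985 and 885 CPM in EGFP+ IMs, against 1418, 1539 and 1559 CPM in EGFP+ AMs (adjusted p = 0.0107), a call lost without replicate number 2 or number 3 or any 1 of their libraries.

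Inflammatory and interferon genes were higher in part. Of 26 inflammatory cytokine and NF-kB feedback genes, 11 were higher and 5 were lower in EGFP+ IMs. Without replicate number 2 or either of its libraries the counts were 5 and 3, and without replicate number 3 or either of its libraries 7 were higher. Il10, an anti-inflammatory cytokine, had 17.3, 15.0 and 15.6 CPM in EGFP+ IMs, against 3.44, 3.48 and 3.96 CPM in EGFP+ AMs. Il18, an inflammasome cytokine, had 31.0, 23.3 and 26.8 CPM in EGFP+ IMs, against 228, 163 and 178 CPM in EGFP+ AMs. These cytokine genes differed in opposite directions, with no overlap between the gates. Of 28 type I interferon-stimulated genes, 10 were higher and 2 were lower. Without replicate number 2 or its AM library 5 were higher, without its IM library 4 were, and none was lower in these fits. Rsad2, the antiviral protein viperin, averaged 19.6 ± 6.27 CPM in EGFP+ IMs and 9.14 ± 2.01 CPM in EGFP+ AMs (SD, n = 3 each). Arg1, which degrades arginine, had 2519, 1195 and 762 CPM in EGFP+ IMs, against 395, 183 and 265 CPM in EGFP+ AMs. The gates did not overlap, but the call (adjusted p = 0.000179) was lost without replicate number 1 or either of its libraries, and, with the block dropped, without AM replicate 2 or 3.

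Markers of other cell types also differed between the gates, and their part in the results was not tested. In CPM of the total count, the 10 B cell and plasma cell markers summed to 381 to 526 in EGFP+ IMs and 163 to 175 in EGFP+ AMs, with 5 of 10 higher, a count that was 8 with no low-count filter, and 1 was lower without IM or AM replicate 3 alone. Without Igkc, the most abundant of them, they summed to 132 to 276 in IMs and 120 to 145 in AMs. These ranges overlapped, and each IM library was above the AM library of the same number. Among the rest, Cd22 ran the other way, with 31.8, 94.2 and 97.8 in IMs and 88.5, 113 and 113 in AMs. Jchain had 71, 64.8 and 94.8 in IMs and 13.5, 16.1 and 12.5 in AMs. The 10 T cell markers summed to 141 to 176 in EGFP+ IMs and 42.3 to 63.5 in EGFP+ AMs, with 7 of 10 higher. Much of the IM sum was Il7r, the interleukin 7 receptor gene. Without it the sums were 33.0 to 95.9 in EGFP+ IMs and 20.8 to 48.5 in EGFP+ AMs. These ranges overlap, and each IM library was above the AM library of the same number. The count of 7 was 3 without replicate number 2 or its IM library, 4 without its AM library and 1 without the block. The 14 neutrophil markers summed to 155 to 228 in EGFP+ IMs and 95.3 to 117 in EGFP+ AMs, or 99.9 to 186 in IMs and 57.3 to 70.1 in AMs without S100a8. Of 11 tested, 7 were higher and 1 was lower, and the defining gene Ly6g had 5 counts over the IM libraries and 0 over the AM libraries. Retnlg, Ngp and Padi4 had 219, 94 and 100 counts over the IM libraries, and 7, 3 and 1 over the AM libraries. Mmp8 and Cxcr2 ran the other way, with 1076 and 113 counts over the IM libraries, and 1974 and 134 over the AM libraries. Igkc, an antibody light chain gene, had 240, 248 and 276 CPM in EGFP+ IMs, against 40.8, 30.5 and 29.8 CPM in EGFP+ AMs. Igha and Ighg2c, antibody heavy chain genes, averaged 464 ± 60.7 and 26.5 ± 11.8 CPM in EGFP+ IMs, and 58.0 ± 14.1 and 0.451 ± 0.38 CPM in EGFP+ AMs. The log2 fold change of Ighg2c, 5.75 ± 0.51 (SE), was 4.93 without replicate number 2 and 6.64 without number 3. Some marker sums were lower in EGFP+ IMs. The 12 dendritic cell markers summed to 70.5 to 83.2 in EGFP+ IMs and 189 to 310 in EGFP+ AMs, or 57.4 to 73.5 in IMs and 51.3 to 110 in AMs without Ly75, an endocytic receptor gene. Of 11 tested, 2 were higher and 3 were lower. The higher count was 1 in every fit without a library or replicate number and 0 with DESeq2, and the lower count was 1 without replicate number 2 or either of its libraries. The 16 lung epithelial markers summed to 86.4 to 128 in EGFP+ IMs and 147 to 157 in EGFP+ AMs, with 1 of 7 tested higher and 3 lower. Without Cdh1, the most abundant of them, the sums were 59.1 to 72 in IMs and 81.7 to 92.6 in AMs. Much of what remained was Krt19 and Epcam in AMs, and Cbr2, also a resident IM gene of the lists, in IMs. Sftpc and Scgb1a1 had 68 and 65 counts over the IM libraries, and 63 and 48 over the AM libraries. The 7 eosinophil markers, which include the gate gene Siglecf, summed to 10 to 13 in EGFP+ IMs and 133 to 191 in EGFP+ AMs. Without Siglecf the sums were 0.983 to 7.58 in IMs and 6.54 to 82.5 in AMs, which overlapped. Most of these was Ear6, with 146 counts over the IM libraries and 1551 over the AM libraries. Ccr3 ran the other way, with 25 and 3 counts, and Epx and Prg3 had no count in any library. The sums of endothelial markers (30.3 to 72.6 in IMs, 63.5 to 111 in AMs), NK cell markers (4.22 to 21.2 in IMs, 7.69 to 9.91 in AMs) and fibroblast markers (6.26 to 9.65 in IMs, 5.27 to 10.9 in AMs) overlapped between the gates. Most of the endothelial sum was Vwf. Without it, the endothelial markers summed to 8.01 to 8.81 in IMs and 2.56 to 4.39 in AMs, which did not overlap and were higher in IMs. Of the platelet markers, Pf4 and Ppbp were higher, whereas Itga2b had 23 counts over the IM libraries and 25 over the AM libraries, and Gp9 had 1 over the IM libraries and 2 over the AM libraries. Of 15 dissociation stress genes 6 were higher and none was lower. The higher count was 10 without replicate number 1 or either of its libraries, and 3 without AM replicate 2 alone. The chemokine, resident IM and monocyte calls stand beside these values.

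The PBS groups show how the gates differed without bleomycin, with the limit that genotype and EGFP sort differ between the PBS gates, and that day and deposited table differ between the comparisons. In PBS lungs 12609 of 15983 genes tested were called (78.9%), 6268 higher in IMs (39.2%) and 6341 lower (39.7%), and 41.9% were called and at least 2-fold apart (23.9% higher, 18% lower). Among 13277 genes tested in both comparisons, 825 were called and at least 2-fold higher in IMs at day 14 and 2158 after PBS. Of these, 635 were in both, 77% of the day 14 genes and 29.4% of the PBS genes, and 53 of the day 14 genes were called and at least 2-fold lower after PBS. Of genes at least 2-fold lower in IMs, 686 were called at day 14, 2554 after PBS and 466 in both, 67.9% and 18.2%, and 33 of the day 14 genes were at least 2-fold higher after PBS. A test of the difference between the day 14 and PBS gate differences called 7482 of 15981 genes (46.8%), 3977 higher (24.9%) and 3505 lower (21.9%), and 27% were called and at least 2-fold (13.1% higher, 13.9% lower). The cause cannot be told apart among injury, time, table, genotype and sort.

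Some estimated gate differences at day 14 were close to those after PBS. The test of the difference recovered 8.96% of simulated 1.5-fold changes and 34.3% at 2-fold, so a gene that did not pass may still differ. Krt79 had a log2 fold change of -7.62 ± 0.08 (SE) after PBS, and its difference of differences did not pass the test (adjusted p = 0.786). Stab1 had 4.54 after PBS against 4.88 at day 14 (adjusted p = 0.572 for the difference), and Maf had 2.80 after PBS against 2.89 at day 14 (adjusted p = 0.851). Cd36, in contrast, did not pass the test between the PBS gates (log2 fold change -0.01), and its day 14 difference was 3.33 ± 0.20 larger (SE; adjusted p = 7.92e-09). Abca1 behaved likewise, with 0.03 after PBS and a difference of 1.90 (adjusted p = 1.45e-06). Ctsl, a lysosomal protease, averaged 2787 ± 1046 CPM in EGFP+ IMs and 653 ± 235 CPM in EGFP+ AMs at day 14, but was lower in IMs after PBS, with a log2 fold change of -1.28. Trem2 was also lower in IMs after PBS (-0.36) and higher at day 14 (1.56). Spp1 was lower in IMs after PBS (-1.15), where the wild-type IMs had no EGFP sort and the AMs had.

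**Figure D4:**
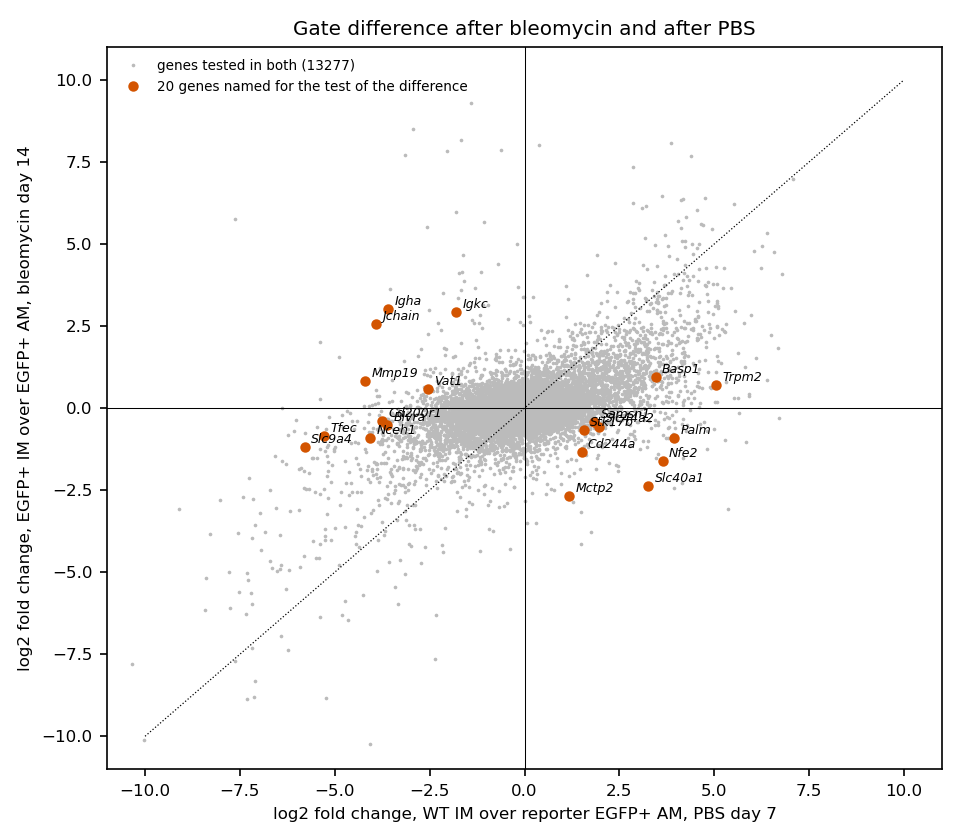
Log2 fold change of EGFP+ IMs over EGFP+ AMs at day 14 after bleomycin (vertical) against that of wild-type IMs over reporter EGFP+ AMs after PBS (horizontal), for 13277 genes tested in both (grey). The 20 orange genes are, among genes called at day 14 with at least 10 CPM in a gate, those with the smallest p for the difference between these differences in each direction, and the dotted line marks equal values.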

How the data were processed

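Polyadenylated RNA was sequenced in bulk. Per the submitters' processing notes, the tools were FastQC 0.11.5, Trimmomatic 0.38, HISAT2 2.1.0, SAMtools and featureCounts 1.6.3, on GRCm38. The annotation release and strand setting are not given in the sources used here, so reads of overlapping and antisense genes, and of near-identical antibody genes, may be split or shared. The authors deposited raw counts per gene in 2 tables, and 3 count columns that match no sample were not used.

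The main test was that of edgeR 4.0.16 under R 4.3.3 (TMM factors, filterByExpr, robust quasi-likelihood F test, 2-sided), with replicate number as a block, which left 2 residual degrees of freedom. SE is the absolute log2 fold change over the square root of F. The block was set by the design, since IM and AM libraries of the same number may share mice. The deviations of same-numbered IM and AM libraries from their group means correlated at 0.246, 0.148 and 0.197 across 13793 genes. The labels give no shared animal. The PBS comparison and the test of the difference (12 libraries, 49022 shared gene IDs) had no block. Replicates differed beyond sampling noise (chi-square per degree of freedom 12.6 to 117).

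The members and gene lists were chosen with earlier results of these data known. Genes named are Spp1, Itgam and Siglecf, 10 called genes in each direction, ranked by size of change (at least 10 CPM in the higher group, no overlap, no predicted genes), the 4 members of each list with the smallest p, the 2 most abundant members of each marker list, and, among genes called at day 14 with at least 10 CPM, the 10 each way with the smallest p in the test of the difference. Some genes that this rule takes are not reported here. Ly6g, Retnlg, Ngp, Padi4, Cxcr2, Itga2b, Gp9, Epx, Prg3, Sftpc, Scgb1a1 and Ccr3 were added after their values were seen. A further promoter motif, tried after the sequences had been read, is not reported. On simulated data for the day 14 comparison (13793 genes), the test recovered 23.9% of genes changed 1.5-fold, 70.1% at 2-fold and 87.9% at 4-fold. The shares for the test of the difference (15981 genes) were 8.96%, 34.3% and 69.7%. In these simulations 13593 and 15781 genes were left unchanged. Far larger shares of genes were called in the real data, so recovery there may differ from these values. With no molecular identifiers, the floor covers only counting error. Alternatives were other size factors, DESeq2 1.42.0, no filter, a non-robust fit, no block, day 30 AMs in the fit, and leaving out libraries.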

Additional observations from a re-analysis of the deposited data

Results flagged for a closer look

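For 20 genes, the difference between EGFP+ IMs and EGFP+ AMs at day 14 differed from that between wild-type IMs and EGFP+ AMs after PBS, by a test of the difference itself (edgeR quasi-likelihood F test over 12 libraries). They are those with the smallest p in each direction among genes called at day 14 with at least 10 CPM, and the values below are log2. Genotype, EGFP sort, day and deposited table differ along with injury, and which of them goes with the differences cannot be told apart. Of 15981 genes, 7482 passed this test (46.8%).

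The antibody genes Igha, Jchain and Igkc were higher in IMs at day 14, by 3.02, 2.56 and 2.93, and lower in IMs after PBS, by -3.59, -3.93 and -1.81. Their differences were 6.55, 6.47 and 4.69 (adjusted p = 3.07e-10, 1.74e-10 and 1.34e-10). Mmp19, a matrix metalloprotease, was 0.83 at day 14 and -4.20 after PBS, a difference of 5.03 (adjusted p = 7.17e-10). Vat1, a vesicle membrane protein gene, was 0.58 at day 14 and -2.54 after PBS, a difference of 3.09 (adjusted p = 1.07e-09). The day 14 calls of Mmp19 and Vat1 were lost without replicate number 2 or either of its libraries. The transcription factor gene Tfec, the receptor gene Cd200r1, the cholesterol ester hydrolase gene Nceh1, the biliverdin reductase gene Blvra and the sodium-proton exchanger gene Slc9a4 were lower in IMs in both comparisons and less so at day 14. Their differences were 4.38, 3.33, 3.11, 3.06 and 4.58. The day 14 calls of Cd200r1 and Blvra were lost without replicate number 2 or either of its libraries.

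In the other direction, Slc40a1, the iron exporter ferroportin, was -2.38 at day 14 and 3.26 after PBS, a difference of -5.66 (adjusted p = 3.07e-10). Nfe2, a transcription factor gene, and Palm, a membrane protein gene, were -1.62 and -0.92 at day 14 and 3.64 and 3.95 after PBS, differences of -5.26 and -4.92. Mctp2, Cd244a, Samsn1, Slc44a2 and Stk17b were also lower in IMs at day 14 and higher after PBS, with differences of -3.88, -2.88, -2.29, -2.55 and -2.27. The day 14 calls of Samsn1, Slc44a2 and Stk17b were lost without replicate number 2 or either of its libraries. Trpm2, a cation channel, and Basp1, a membrane protein gene, were higher in IMs in both comparisons and less so at day 14, with differences of -4.40 and -2.54. The day 14 call of Trpm2 was lost with DESeq2, without the block, and without replicate number 2 or 3 or any 1 of their libraries. With the block dropped and 1 library left out, the day 14 calls of Cd200r1, Blvra, Mmp19, Vat1, Palm, Trpm2, Samsn1 and Slc44a2 were each lost in at least 1 fit.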

How the results depend on the processing

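The counts of genes called at day 14 (1862 higher, 1823 lower) stayed within 1.5 times of these with RLE size factors, DESeq2 (1579 and 1400), no low-count filter (2141 and 2149), a non-robust fit, TMM without the most abundant genes, no replicate block (1469 and 1394) and day 30 AMs in the fit. Leaving out libraries or replicate numbers gave 867 to 2414 higher and 750 to 2194 lower, with the low values from fits without a library of number 2. The distinct genes of all gene lists other than marker lists, 205 higher and 172 lower, ranged from 128 to 262 higher and 104 to 183 lower in those fits. In fits chosen after seeing the data, without the block and without 1 library, 982 to 1826 genes were higher and 875 to 1548 were lower. The counts in these fits were 1011 and 907 without IM replicate 2, 1098 and 1088 without AM replicate 1, 982 and 875 without AM replicate 2, and 987 and 911 without AM replicate 3. The cause was not tested. Without the block, the counts of called members fell outside 1.5 times for several lists, among them cholesterol synthesis (13 lower), nonclassical monocyte, growth factor (3 lower each) and inflammatory genes (2 lower), interferon-stimulated genes (0 lower), T cell markers (1 higher) and chemokine receptors (2 higher). Among the genes named in the text, dropping the block with all libraries kept lost the day 14 call of Trpm2 and no other. Few simulated differences of 1.5-fold were recovered in the day 14 comparison (23.9%), so a gene that did not pass may still differ.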

Other observations

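Of 32 lysosomal hydrolase and proton pump genes, 10 were higher and 3 were lower in EGFP+ IMs. These counts depended on the replicate number left out. There were 19 higher without replicate number 1 or either of its libraries. Without replicate number 2 or either of its libraries 2 were higher and 1 lower. Ctsb, the protease cathepsin B, had 6911, 8260 and 8293 CPM in EGFP+ IMs, against 2798, 2625 and 2752 CPM in EGFP+ AMs. Atp6v0d2, a proton pump subunit, had 283, 419 and 322 CPM in EGFP+ IMs, against 1106, 897 and 813 CPM in EGFP+ AMs. The gates did not overlap for either gene, and the differences were of opposite sign. Of 17 MHC class II and costimulation genes, 4 were higher and 1 was lower. Without replicate number 1 or either of its libraries 10 were higher, and without replicate number 3 or either of its libraries 4 were lower. Cd83, a maturation marker of antigen-presenting cells, had 681, 953 and 1304 CPM in EGFP+ IMs, against 193, 236 and 236 CPM in EGFP+ AMs.

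The calprotectin gene S100a9 had 29.1, 18.1 and 57.1 CPM in EGFP+ IMs, against 1.10, 0.348 and 1.08 CPM in EGFP+ AMs (log2 fold change 5.32 ± 0.23 SE). S100a8, its partner, had 54.3, 39.7 and 46.7 CPM in EGFP+ IMs, against 57.3, 26.9 and 29.2 CPM in EGFP+ AMs, and did not pass the test (adjusted p = 0.0974). It passed without replicate number 1 (adjusted p = 0.000975), without only its IM (adjusted p = 0.000636) or AM library (adjusted p = 0.00067), with no low-count filter (adjusted p = 0.0379), and without the block and without AM replicate 1 (adjusted p = 0.0202).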
